A study of Mus musculus with 10 samples.

Results

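The cytosolic ribosomal protein genes encode the proteins of the large (Rpl, Rplp) and small (Rps, Rpsa) subunit of the ribosome that works in the cytoplasm. They were taken by symbol, as every gene whose name follows the Rpl, Rps, Rpsa or Rplp pattern, and the S6 kinase genes (Rps6k) were kept out. The rule found 77 of the 14276 genes of the count table, 47 of the large and 30 of the small subunit. The annotation holds 84 protein-coding genes of such names. Rpl10l, Rpl23a, Rpl38, Rpl39l, Rpl3l, Rps16 and Rps29 were not analysed here. Within the table, symbols and not values decided membership, but the set was chosen with earlier results of these data known.

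The tissue was cerebral cortex from 3-month-old C57BL/6 mice. Libraries were made after removal of ribosomal RNA from total RNA, and the deposited values are read counts per gene. The 5 control libraries came from Brap flox/wt Cre- (08, 22 and 23) and Brap flox/flox Cre- (09 and 24) mice. The 5 BrapcKO libraries came from Brap flox/ko Cre+ (04, 07 and 21) and Brap flox/flox Cre+ (05 and 06) mice. Brap encodes the BRCA1-associated protein, a ubiquitin ligase known to restrain signalling from Ras to MAP kinase. The labels do not name the driver of Cre, and since the BrapcKO libraries are Cre+ and the control libraries Cre-, an effect of Cre itself and the loss of Brap cannot be told apart. A second label in the titles reads B1 or B2, and the labels do not say what this code stands for. B1 holds control 08 and 09 and BrapcKO 04 to 07, and B2 holds control 22, 23 and 24 and BrapcKO 21. The members are therefore described first by code and then by group in a model that also holds the code.

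A ribosome holds a single copy of most ribosomal proteins, and cells make these proteins in matched amounts. Their mRNAs are among the most abundant of most cells. They begin at the cap with a run of pyrimidines, the 5′ terminal oligopyrimidine (TOP) tract, through which the kinase complex mTORC1 controls their translation as a group. Mammalian genomes also hold many processed pseudogenes of these genes, copies made by reverse transcription of the mRNAs, so that a short read from a ribosomal protein mRNA can match the genome at several places. Whether the deposited counts include reads that match several places, and whether strand was used, was not given in the sources used here.

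Total counts ran from 17188901 to 20955211 in the B1 libraries and from 26356508 to 28991874 in the B2 libraries. Every gene of the table had at least 0.582 CPM (counts scaled to a library total of 1000000) in at least 5 libraries, which with 4 B2 libraries means at least 1 B1 library at that level. Markers of excitatory neurons were present throughout, at 2663 to 3576 summed CPM over 10 genes. Reads from Y-linked genes marked control 23 and BrapcKO 05, 06, 07 and 21 as male, which is 3 of 6 libraries in B1 and 2 of 4 in B2, but 1 of 5 in control and 4 of 5 in BrapcKO. With the mean log2 CPM of the Y-linked genes as a further term, 74 members were still called higher in B2 (median log2 difference 2.71). By group 0 were called (median 0.17, edgeR, 5 at an unadjusted p under 0.05). In that fit 22.0% of all genes tested were called by code. By group 2.24% were, against 8.07% without the Y-linked term, so 0 calls among 77 members are near the share over all genes. Endothelial markers were lower in B2 in 5 of 10 genes (median log2 difference -0.65), and pericyte and smooth muscle markers in 5 of 8 (median -0.49). By code, excitatory markers were lower in B2 in 3 of 10 genes and higher in 1. By group, with the code as a term, excitatory markers were lower in BrapcKO in 3 of 10 genes (Camk2a, Rorb and Neurod6) and higher in 1. Inhibitory neuron markers were higher in BrapcKO in 4 of 10 genes and markers of striatum in 7 of 10. Microglial markers were higher in 3 of 15 (median 1.04) and astrocyte markers in 1 of 11, Gfap. Of all genes tested, 3.12% were higher and 4.95% lower in BrapcKO, 8.07% in all. By code 13.4% were higher and 11.8% lower in B2. The 1 astrocyte call by group and the 1 excitatory marker higher in B2 are near these shares. The microglial sum was 397.3 to 428.3 CPM in control and 583.5 to 1687 CPM in BrapcKO, highest in BrapcKO 05. The part of these markers in the results on the members was not tested. Brap itself stood at 88.4 ± 8.58 CPM in control (SD, n = 5) and 103.8 ± 9.15 CPM in BrapcKO (SD, n = 5), a log2 difference of 0.23 (SE 0.10, edgeR adjusted p = 0.18). The counts cover the whole gene, so this does not test for a deleted exon. In bulk tissue, fewer cells of a type and less RNA per cell cannot be told apart. Separate animals are not stated in words, and p-values here rest on how far the libraries vary, some of which may be technical.

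The start of the coding sequence is shown for 4 members picked by their difference between the codes, 2 with a small and 2 with a large one. Because they were picked on that difference, they do not test its relation to shared sequence. Each run is the first 120 coding bases of the main transcript, 5′ to 3′, from GENCODE M21 (GRCm38). Capitals mark bases that lie in a stretch of 50 bases found letter for letter in a transcript of another annotated gene or pseudogene. Rpl7l1 (chr17:46773907-46782672, minus strand) encodes a relative of Rpl7 and Rpl8 (chr15:76904078-76906314, plus strand) a protein near the peptidyl transferase centre.
Rpl7l1: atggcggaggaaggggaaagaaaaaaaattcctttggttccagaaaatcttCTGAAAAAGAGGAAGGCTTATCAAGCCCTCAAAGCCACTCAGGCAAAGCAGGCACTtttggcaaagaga
Rpl8: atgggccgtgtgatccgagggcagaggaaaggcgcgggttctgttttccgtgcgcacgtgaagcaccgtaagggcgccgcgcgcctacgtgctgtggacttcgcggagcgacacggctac
In this window 0 bases of Rpl8 and 56 of Rpl7l1 were shared. Rpl36 (chr17:56613416-56614243, plus strand) and Rpl19 (chr11:98026710-98030492, plus strand) encode large-subunit proteins, the latter part of a bridge to the small subunit.
Rpl36: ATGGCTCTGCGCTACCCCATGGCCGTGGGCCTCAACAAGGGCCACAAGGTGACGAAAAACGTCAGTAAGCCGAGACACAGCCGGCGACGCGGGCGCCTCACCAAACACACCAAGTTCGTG
Rpl19: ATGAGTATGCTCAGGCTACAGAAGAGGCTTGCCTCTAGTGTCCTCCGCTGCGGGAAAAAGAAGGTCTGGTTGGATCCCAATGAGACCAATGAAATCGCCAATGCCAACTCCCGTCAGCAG
All 120 bases of both were shared. For each of them a processed pseudogene that shares many of its stretches is given next, aligned base for base to the same 120 bases, with capitals at the bases that differ from the gene. Gm13611 (chr2:32271845-32272162, plus strand) belongs to Rpl36 and Rpl19-ps11 (chr8:19492936-19493526, plus strand) to Rpl19.
Gm13611: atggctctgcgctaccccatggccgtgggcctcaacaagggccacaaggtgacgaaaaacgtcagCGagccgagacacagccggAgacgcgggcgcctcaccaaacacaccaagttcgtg
Rpl19-ps11: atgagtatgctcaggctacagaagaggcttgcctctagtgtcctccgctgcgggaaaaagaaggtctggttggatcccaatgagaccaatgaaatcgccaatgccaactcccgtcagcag
They differed from their genes at 3 and 0 of 120 bases. Over whole main transcripts, 76 of the 77 members shared at least 1 stretch of 50 bases with a pseudogene. The median member had 8 such pseudogenes. Together they were 1060 pseudogenes, and 0 of them were among the genes analysed here.

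The ribosomal protein genes were far higher in B2 than in B1. In edgeR's quasi-likelihood test with the group as the other term and Benjamini-Hochberg adjustment over all genes, 74 of the 77 were higher in B2 and 0 lower, where 13.4% of all genes tested were higher and 11.8% lower (25.1% in either direction). The median log2 difference of the members was 2.71, or 6.52-fold, against -0.02 over all genes. Among the members named here, the difference ran from 0.22 (1.17-fold, Rpl7l1) to 6.56 (94.4-fold, Rpl17). The difference was over 4-fold in 45 members, where 1.34% of all genes tested passed that fold. It was over 16-fold in 26 and over 64-fold in 3, Rpl17 and Rpl36 among them. In 72 members every B2 library lay above every B1 library, as in 10.6% of all genes, and in 0 below, against 8.92% of all genes. Rpl7l1, Rpl8, Rplp1 and Rps27l were among the exceptions. The large subunit (45 of 47 higher, median 2.75) and the small subunit (29 of 30 higher, median 2.48) both took part.

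The members held 0.211% to 0.249% of all counts in the 6 B1 libraries and 0.709% to 0.858% in the 4 B2 libraries. BrapcKO 21, the one knockout library of code B2, held 0.799%, and the 4 knockout libraries of code B1 held 0.236% to 0.249%. The median member stood at 10.7 to 14.3 CPM in B1 and at 83.9 to 104.8 CPM in B2. The share thus followed the code in both groups, with no overlap between the codes.

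**Figure D1:**
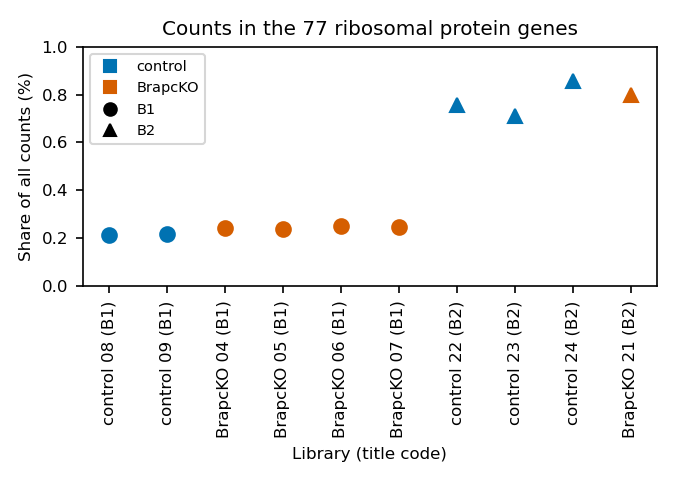
Share of all counts (percent) that fell in the 77 ribosomal protein genes, 1 point per library, with colour for the group and shape for the title code. The B1 libraries lie between 0.211% and 0.249% and the B2 libraries between 0.709% and 0.858%, control and BrapcKO alike.

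**Figure D2:**
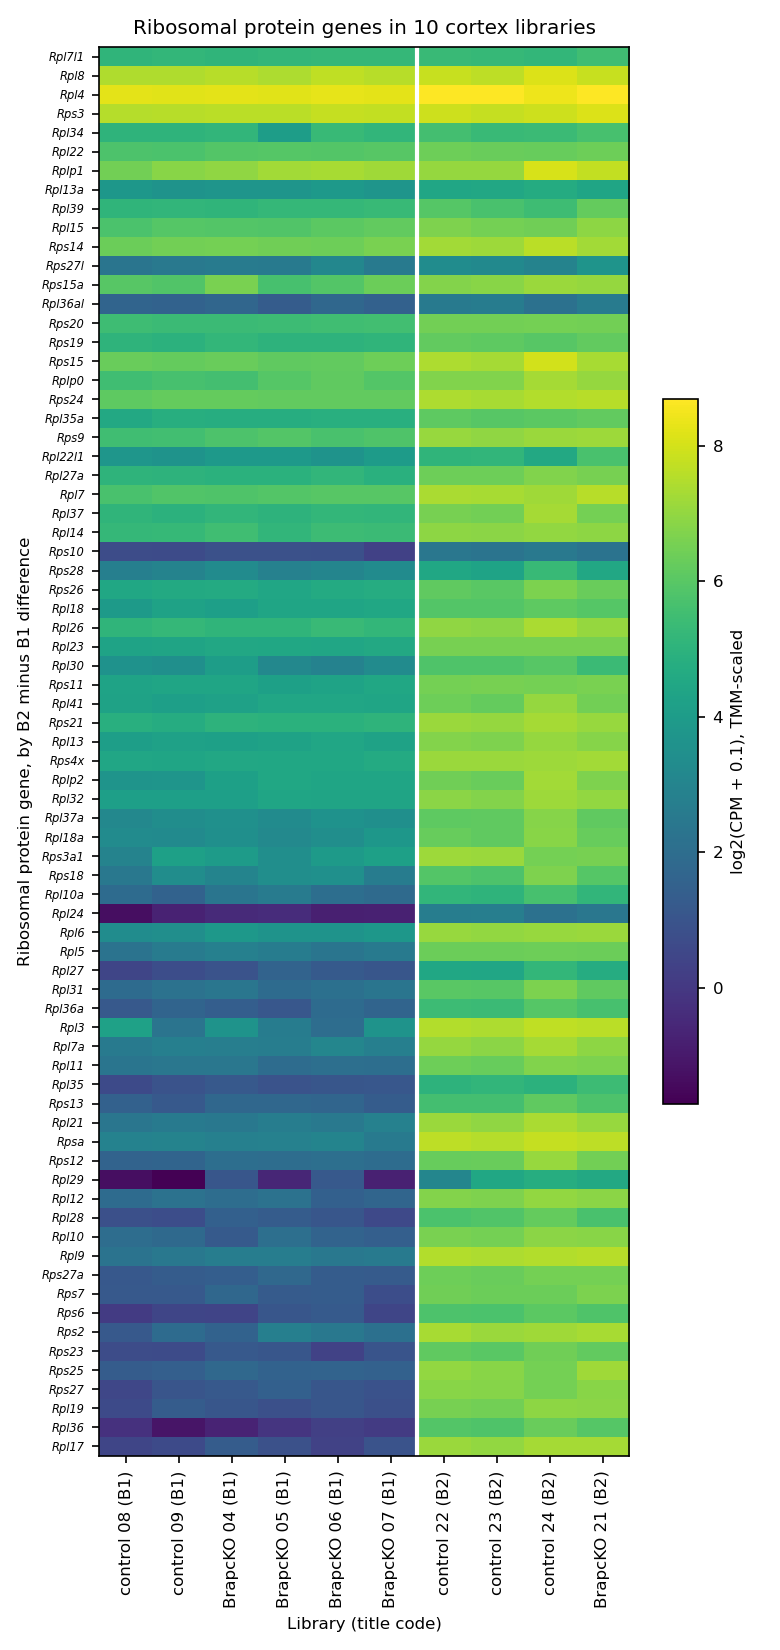
Level of 74 of the 77 genes, log2(CPM + 0.1) with TMM scaling, in each library, with genes ordered from the smallest B2 minus B1 difference (Rpl7l1, top) to the largest (Rpl17, bottom) and a white line between the codes. From the top down, the B1 libraries become darker while the B2 libraries keep a similar shade.

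Among the small-subunit genes, Rps6, the protein that S6 kinases phosphorylate, ran from 0.967 to 2.27 CPM in the B1 libraries, with a median of 1.28, and stood at 55.4, 52.8 and 67.7 CPM in control 22, 23 and 24 and 56.7 CPM in BrapcKO 21. As deposited, that is 19 to 48 counts in the B1 libraries and 1513 to 1757 in the B2 libraries. Its log2 difference was 5.36 (SE 0.19, edgeR adjusted p = 2.6e-10), with every B2 library above every B1 library. Rpsa, also known as the laminin receptor, ran from 5.77 to 7.88 CPM in the B1 libraries, with a median of 7.29, and stood at 198.3, 183.2 and 221.6 CPM in control 22, 23 and 24 and 198.6 CPM in BrapcKO 21. The log2 difference between the codes was 4.78 (SE 0.10, edgeR adjusted p = 3.1e-12), with no overlap between the codes. Rps25, which some viral internal ribosome entry sites need, ran from 2.39 to 3.42 CPM in the B1 libraries, with a median of 2.83, and stood at 126.8, 113.0 and 92.6 CPM in control 22, 23 and 24 and 147.0 CPM in BrapcKO 21. It differed by a log2 of 5.54 (SE 0.11, edgeR adjusted p = 3.1e-12), and the lowest B2 library was control 24.

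Rps27, a structural protein of the small subunit, ran from 1.32 to 2.70 CPM in the B1 libraries, with a median of 1.969, and stood at 114.3, 110.2 and 91.8 CPM in control 22, 23 and 24 and 113.3 CPM in BrapcKO 21, with every B2 library above every B1 library. It was higher in B2 by a log2 difference of 5.86 (SE 0.14, edgeR adjusted p = 5.4e-12). Rps27a, which is made as a fusion of ubiquitin with a small-subunit protein, ran from 2.14 to 3.43 CPM in the B1 libraries, with a median of 2.41, and stood at 83.1, 78.8 and 90.5 CPM in control 22, 23 and 24 and 91.0 CPM in BrapcKO 21. This is a log2 difference of 5.15 (SE 0.11, edgeR adjusted p = 3.5e-12).

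Not every small-subunit gene moved so far. Rps3, which sits where mRNA enters the small subunit, ran from 184.6 to 220.0 CPM in the B1 libraries, with a median of 195.9, and stood at 239.1, 221.2 and 236.3 CPM in control 22, 23 and 24 and 280.9 CPM in BrapcKO 21. It was higher in B2 by a log2 difference of 0.37 (SE 0.07, edgeR adjusted p = 0.0021), against 5.86 for Rps27. The Rps3 call was lost within control alone (0.33, edgeR adjusted p = 0.051) and within BrapcKO alone (0.46, edgeR adjusted p = 0.054).

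Among the large-subunit genes, Rpl9, near the base of the stalk, had the smallest p. It ran from 4.63 to 6.40 CPM in the B1 libraries, with a median of 5.54, and stood at 178.4, 171.1 and 178.9 CPM in control 22, 23 and 24 and 191.7 CPM in BrapcKO 21. B2 exceeded B1 by a log2 of 5.08 (SE 0.09, edgeR adjusted p = 5.7e-13), and the B2 libraries lay close together. Rpl17, which lines the exit tunnel of the nascent chain, ran from 1.18 to 2.38 CPM in the B1 libraries, with a median of 1.59, and stood at 140.3, 129.3 and 155.8 CPM in control 22, 23 and 24 and 155.1 CPM in BrapcKO 21. Its log2 difference was 6.56 (SE 0.14, edgeR adjusted p = 3.5e-12), with the codes wide apart. Rpl35, at the mouth of that tunnel, ran from 1.42 to 2.18 CPM in the B1 libraries, with a median of 1.92, and stood at 32.4, 34.5 and 31.6 CPM in control 22, 23 and 24 and 42.7 CPM in BrapcKO 21. The log2 difference between the codes was 4.36 (SE 0.11, edgeR adjusted p = 6.6e-12), and BrapcKO 21 was the highest library.

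Rpl6, a structural protein of the large subunit, ran from 10.2 to 14.3 CPM in the B1 libraries, with a median of 12.4, and stood at 136.9, 127.0 and 136.8 CPM in control 22, 23 and 24 and 140.9 CPM in BrapcKO 21. It differed by a log2 of 3.56 (SE 0.09, edgeR adjusted p = 6.6e-12), with no overlap. Rpl5 and Rpl11, which join 5S ribosomal RNA and bind Mdm2 when ribosome assembly is disturbed, moved by 3.88 and 4.30. Rpl4, another protein of the exit tunnel, ran from 300.1 to 314.3 CPM in the B1 libraries, with a median of 302.6, and stood at 411.9, 400.8 and 347.3 CPM in control 22, 23 and 24 and 401.3 CPM in BrapcKO 21. The codes did not overlap, but its log2 difference was only 0.37 (SE 0.07, edgeR adjusted p = 0.0022). Within control alone (0.37, edgeR adjusted p = 0.065) and within BrapcKO alone (0.42, edgeR adjusted p = 0.052) that difference kept its size and did not pass the threshold. B2 within BrapcKO is the single library BrapcKO 21, which is assumed there to vary like the B1 libraries. Rpl8 moved as little, by 0.36 (SE 0.10, edgeR adjusted p = 0.023), and its call was lost without control 08 (0.33, edgeR adjusted p = 0.087) or control 09 (0.34, edgeR adjusted p = 0.081), within control alone (0.44, edgeR adjusted p = 0.086) and within BrapcKO alone (0.28, edgeR adjusted p = 0.25). Rpl34 missed the threshold at 0.50 (SE 0.19, edgeR adjusted p = 0.079), and BrapcKO 05, at 17.0 CPM, was its lowest library by a wide margin. Rpl34 was called without that library (0.43, edgeR adjusted p = 0.0035) and by DESeq2 (0.51, adjusted p = 0.046).

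The stalk proteins recruit the GTPases of translation to the ribosome, with Rplp0 as the base and Rplp1 and Rplp2 as the arms. Rplp2 ran from 12.7 to 22.0 CPM in the B1 libraries, with a median of 19.6, and stood at 87.1, 78.8 and 150.9 CPM in control 22, 23 and 24 and 102.7 CPM in BrapcKO 21. Rplp1 ran from 88.0 to 158.5 CPM in the B1 libraries, with a median of 135.4, and stood at 131.8, 130.5 and 264.9 CPM in control 22, 23 and 24 and 211.9 CPM in BrapcKO 21, and here the codes overlapped. The log2 differences were 2.75 (SE 0.21, edgeR adjusted p = 8.8e-07) for Rplp2, 1.26 (SE 0.14, edgeR adjusted p = 2.8e-05) for Rplp0 and 0.70 (SE 0.21, edgeR adjusted p = 0.031) for Rplp1. The code call of Rplp1 was lost without control 08 (0.58, edgeR adjusted p = 0.12), control 09 (0.76, edgeR adjusted p = 0.067) or BrapcKO 21 (0.81, edgeR adjusted p = 0.089), within control alone (0.82, edgeR adjusted p = 0.13) and when group was left out of the model (0.50, edgeR adjusted p = 0.13). Genes whose products stand side by side in the stalk thus differed by unequal amounts between the codes.

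Paralogs showed the same inequality. Rpl22, known as a binder of viral RNA, differed by 0.52 (edgeR adjusted p = 0.00012) and its paralog Rpl22l1 by 1.51 (edgeR adjusted p = 6.3e-06). Rpl7 differed by 1.57 (edgeR adjusted p = 5.8e-09) and Rpl7l1 by 0.22 (edgeR adjusted p = 0.059). Rps27 differed by 5.86, and Rps27l, a p53 target, by 0.87 (edgeR adjusted p = 0.001). Rpl36a differed by 4.19 (edgeR adjusted p = 1.1e-09) and Rpl36al by 0.95 (edgeR adjusted p = 0.0011). In 3 of these 4 pairs the parent gene moved more, and in the Rpl22 pair the paralog did. The Rpl36al call was lost within BrapcKO alone (1.10, edgeR adjusted p = 0.059). Rpl7l1 was called by DESeq2 (0.23, adjusted p = 0.032), without control 24 (0.26, edgeR adjusted p = 0.017), with TMM factors from the other genes (0.24, edgeR adjusted p = 0.043) and under the stricter filter of 5 CPM (0.23, edgeR adjusted p = 0.049). The difference between paralogs was not tested.

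Across the members, the code difference rose with the share of the main transcript that was also found elsewhere in the annotation. Shared 50-base stretches made up a median of 53.3% of a member's main transcript, and 0% over all genes. Over the 77 members, Spearman's rho between this share and the log2 difference was 0.70 (Pearson's r = 0.71). With stretches of 75 bases rho was 0.71. The points share the same 10 libraries and 1 annotation, and genes are not independent replicates. The number of pseudogenes gave rho = 0.54, exon length -0.18 and GC content 0.09. The 20 members with over 75% shared sequence had a median log2 difference of 4.36, the 22 with 50 to 75% one of 3.11, and the 24 with 25 to 50% one of 1.96. The 4 members at 10 to 25% had a median of 0.83, and the 6 at up to 10% one of 0.44. The part of shared sequence in the code difference was not tested.

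Some members stood away from this trend. Rpl21 had 26.2% shared sequence, yet 81 pseudogenes and a log2 difference of 4.61. Rplp1 (60.0%), Rpl13a (57.4%) and Rpl36al (63.3%) had over 50% of their sequence shared and differed by 0.70, 0.77 and 0.95. Rpl30, at 79.2%, differed by 2.19, less than Rpl19 at 79.3%, which differed by 5.86. Members differed at a given share by several units of log2, so the share orders the members only in part.

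**Figure D3:**
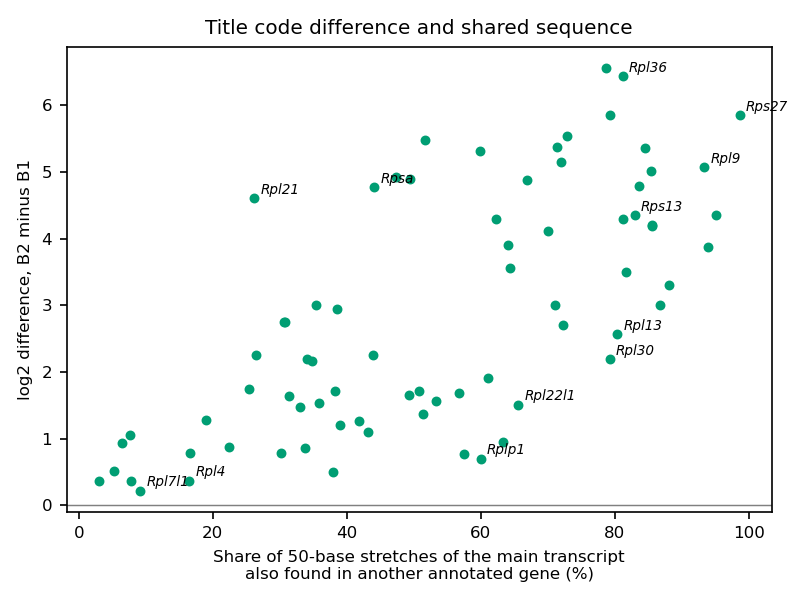
Log2 difference between the codes (B2 minus B1, group as the other term) against the share of 50-base stretches of the main transcript that also occur in another annotated gene or pseudogene (percent), 1 point for each of 74 of the 77 genes. Rpl7l1, at 9.19% and 0.22, lies at the lower left and Rpl36, at 81.1% and 6.44, at the upper right, with Rpl21 above the trend and Rplp1 below it.

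The other genes of the table showed a weaker form of the same relation, with rho = 0.27 over 14194 genes. Their median log2 difference was -0.06 in the 7656 genes with no shared stretch and 1.04 in the 139 with over 75%. In each of these ranges of shared sequence the members' median lay above that of the other genes, 4.36 against 1.04 in the highest. Of the 139 other genes over 75%, 58.3% were higher in B2, and of the 7656 with none 5.46% were.

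The order of the members' levels also depended on the code. Per kilobase of exon, mean levels ran from 0.498 to 262.0 CPM in B1 (median 6.27) and from 2.18 to 370.3 CPM in B2 (median 44.9). The SD of log2 CPM per kilobase over the members was 1.998 to 2.16 in the B1 libraries and 1.28 to 1.39 in the B2 libraries, so the members were closer to each other in B2. Spearman's rho between the members' B1 and B2 levels was 0.42. Over all 10 libraries the most abundant per kilobase were Rplp1, Rps15, Rpl4, Rpl8 and Rps21. Rplp1 stood at 262.0 CPM per kilobase in B1 and 370.3 in B2, and Rpl4 at 151.6 and 194.5. Rps15, of the small-subunit head, stood at 121.7 and 290.5, Rpl8 at 135.5 and 170.8, and Rps21 at 37.4 and 174.0.

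The least abundant per kilobase were Rps10, Rpl24, Rpl36al, Rpl10a and Rpl27. Rps10 stood at 0.67 CPM per kilobase in B1 and 2.18 in B2. Rpl24, part of a bridge between the subunits, stood at 0.498 and 5.45, which in B1 rests on 6 to 12 counts per library. Rpl36al stood at 2.15 and 4.12, Rpl10a, of the stalk that guides tRNA out, at 1.72 and 15.8, and Rpl27 at 1.29 and 17.4. With the length of the main transcript in place of merged exons, the 5 most abundant were the same genes, and Rpl29 and Rpl18 took the place of Rpl10a and Rpl27 among the least. Among these 5, exons of Rps10, Rpl24 and Rpl36al overlap another annotated gene on the same strand, and how reads there were counted was not given in the sources used here.

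**Figure D4:**
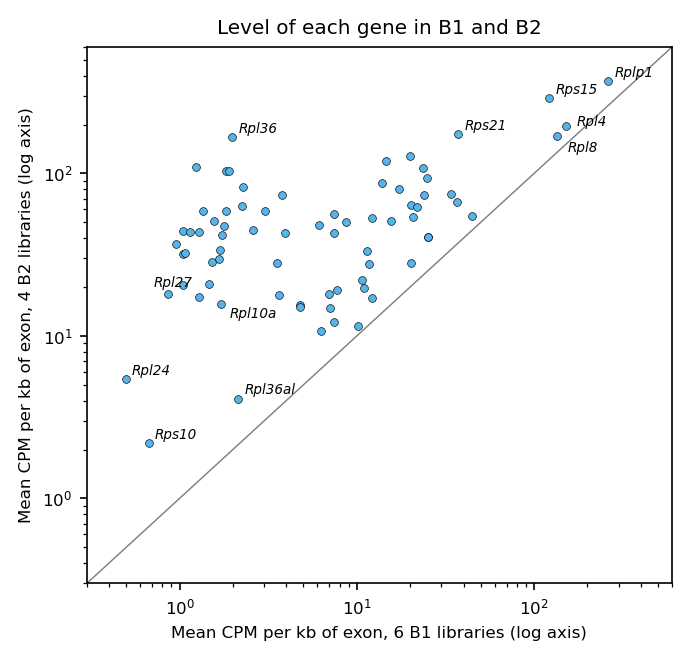
Mean level of 74 of the 77 genes in the 6 B1 libraries (x axis) and the 4 B2 libraries (y axis), in CPM per kilobase of exon, both axes logarithmic, with a grey line at equal levels. All points lie above the line, close to it for Rpl4 and Rpl8 and far above it for Rpl36.

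The knockout comparison asked whether cortex labelled BrapcKO holds more or less of these mRNAs than control cortex. With the title code as a term, 0 of the 77 members were higher and 0 lower in BrapcKO (edgeR, Benjamini-Hochberg over all genes), where 3.12% of all genes tested were higher and 4.95% lower, 8.07% in all. At an unadjusted p under 0.05, 10 members were higher and 0 lower. Every gene called after adjustment also passes that cut, so at least 8.07% of all genes do, and their exact share was not counted. DESeq2 called 1 member higher and limma-voom 0. The log2 differences ran from -0.26 (Rpl30) to 0.94 (Rpl29), with 62 positive and 15 negative. Their median was 0.09, against 0.01 over all genes. The 95% interval lay within 0.5 of zero on the log2 scale in 52 members and within 1 in 75, and Rpl29 and Rpl3 had intervals wider than that. In 0 members did the 5 libraries of one group lie apart from the 5 of the other, as they did in 6.82% of all genes.

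The same comparison without the code gave another picture. With the group as the only term, the median log2 difference was -0.95, 72 of 77 members were negative and the values ran from -1.65 to 0.13, where 1.83% of all genes were called higher and 2.49% lower, 4.32% in all. None of these passed the test (edgeR, 0 at an unadjusted p under 0.05, and 0 after adjustment), with a median SE of 0.81 against 0.13 when the code was a term. The sign differed between both fits in 57 members. Of the group-only differences, rho with the shared sequence was -0.67 over the 77 members, and with the code as a term it was 0.02. B1 holds 4 of the 5 BrapcKO and 2 of the 5 control libraries.

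**Figure D5:**
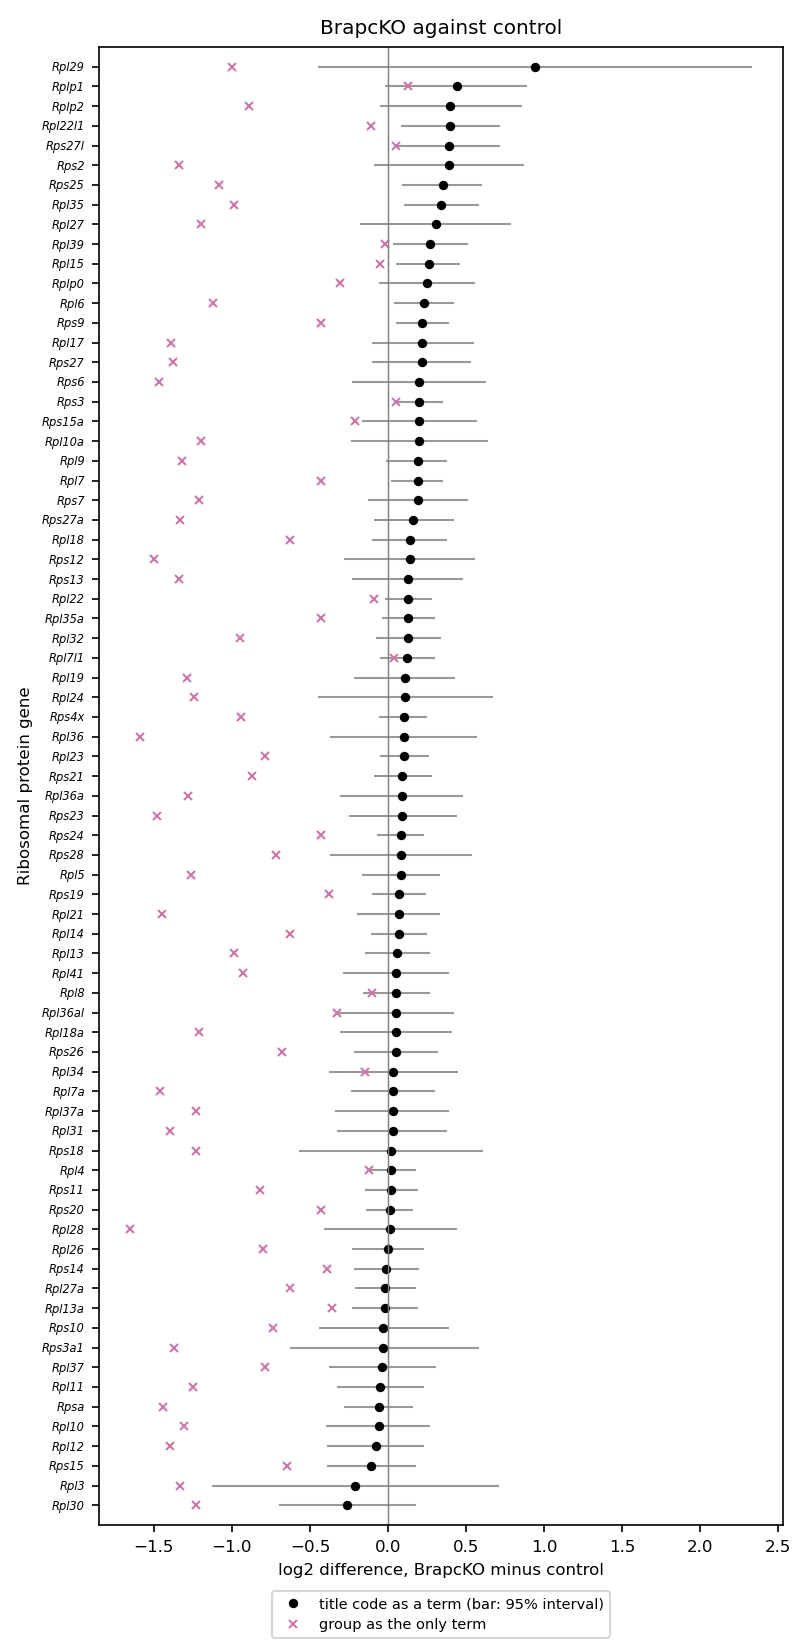
Log2 difference between BrapcKO and control for 74 of the 77 genes. Black points with 95% intervals come from the fit that holds the title code and lie around 0 (median 0.09 over all 77), and crosses come from the fit with the group as the only term and lie mostly below 0 (median -0.95 over all 77).

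The 3 members with the smallest p in this comparison were Rpl35, Rps25 and Rps3. Rpl35 stood at 1.42 and 1.85 CPM in control 08 and 09 and 2.18, 1.85, 1.983 and 2.05 CPM in BrapcKO 04 to 07, all of code B1. In B2 it stood at 32.4, 34.5 and 31.6 CPM in control 22, 23 and 24 and 42.7 CPM in BrapcKO 21. The BrapcKO libraries were the higher ones within each code, by a log2 difference of 0.34 (SE 0.11, edgeR adjusted p = 0.081). Rps25 stood at 2.39 and 2.57 CPM in control 08 and 09 and 3.42, 2.86, 2.93 and 2.79 CPM in BrapcKO 04 to 07, all of code B1. In B2 it stood at 126.8, 113.0 and 92.6 CPM in control 22, 23 and 24 and 147.0 CPM in BrapcKO 21. Its log2 difference was 0.35 (SE 0.12, edgeR adjusted p = 0.096), and without the code term it was -1.08, as it was -0.99 for Rpl35.

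Rps3 stood at 184.6 and 188.0 CPM in control 08 and 09 and 197.7, 194.1, 220.0 and 215.4 CPM in BrapcKO 04 to 07, all of code B1. In B2 it stood at 239.1, 221.2 and 236.3 CPM in control 22, 23 and 24 and 280.9 CPM in BrapcKO 21. Its log2 difference was 0.20 (SE 0.07, edgeR adjusted p = 0.12), and DESeq2 gave 0.20 with an adjusted p of 0.039. In 9 members (Rpl22, Rpl23, Rpl35, Rpl6, Rps25, Rps27l, Rps3, Rps4x and Rps9) every BrapcKO library lay above every control library within each code, and in 0 members below. Over all genes, 7.43% showed the first pattern and 8.89% the second.

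The stalk genes leaned the same way and depended on single libraries. Rplp1 stood at 88.0 and 113.4 CPM in control 08 and 09 and 125.3, 153.6, 158.5 and 145.5 CPM in BrapcKO 04 to 07, all of code B1. In B2 it stood at 131.8, 130.5 and 264.9 CPM in control 22, 23 and 24 and 211.9 CPM in BrapcKO 21. Within B1 every BrapcKO library was above both control libraries, while within B2 control 24 was the highest. With the code as a term the log2 difference was 0.44 (SE 0.21, edgeR adjusted p = 0.24) for Rplp1, 0.40 (SE 0.21, edgeR adjusted p = 0.29) for Rplp2 and 0.25 (SE 0.14, edgeR adjusted p = 0.34) for Rplp0. Without control 24, Rplp1 (0.59, edgeR adjusted p = 0.0035), Rplp2 (0.54, edgeR adjusted p = 0.0048) and Rps12 (0.30, edgeR adjusted p = 0.041) were called higher. In that fit 10.2% of all 14276 genes tested were called, 574 higher and 880 lower, so the 3 calls among 77 members are near the share over all genes. Control 24 was the highest B2 library in 49 of the 77 members and BrapcKO 21 in 21.

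Rplp2 stood at 12.7 and 12.9 CPM in control 08 and 09 and 18.4, 22.0, 21.1 and 20.8 CPM in BrapcKO 04 to 07, all of code B1. In B2 it stood at 87.1, 78.8 and 150.9 CPM in control 22, 23 and 24 and 102.7 CPM in BrapcKO 21. Within B1 alone, Rplp2 was the one member called, with a log2 difference of 0.68 (edgeR adjusted p = 0.022), and the members' median was 0.16. Within B2 alone, where BrapcKO is 1 library set against 3 controls, the members' median was 0.03. Rpl30, a protein that binds kinked RNA, leaned the other way at -0.26 (SE 0.20, edgeR adjusted p = 0.5), and without BrapcKO 04 it was called lower (-0.44, edgeR adjusted p = 0.028).

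The difference between the codes in the knockout effect was tested as an interaction. It was called in 0 members and in 0% of all genes tested (edgeR, 0 members at an unadjusted p under 0.05, lowest adjusted p 0.68). Its median SE was 0.27, and B2 holds a single BrapcKO library. By genotype, flox/flox Cre+ (05 and 06, both of code B1) against flox/flox Cre- (09 and 24) gave a median of 0.04 over the members and 0 calls (edgeR, 5 at an unadjusted p under 0.05), where 0.336% of all genes were higher and 0.399% lower, 0.736% in all. By their Y-linked reads, 05 and 06 are male and 09 and 24 are not, so sex and genotype cannot be told apart in this pair. The pair flox/ko Cre+ (04, 07 and 21) against flox/wt Cre- (08, 22 and 23) gave a median of 0.17. There Rplp1 was called higher, by 0.71 (edgeR adjusted p = 0.014), as 1.77% of all genes were, and 0 members lower, against 3.08% of all genes (4.84% in either direction). Whether the genotype pairs differ from each other was not tested.

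Among ribosomal components that the symbols leave out, Fau split by code and Rack1 did not. Fau, a fusion of a ubiquitin-like protein with a small-subunit protein, ran from 1.93 to 5.76 CPM in the B1 libraries, with a median of 2.74, and stood at 72.9, 69.2 and 74.2 CPM in control 22, 23 and 24 and 73.2 CPM in BrapcKO 21. Its log2 difference was 4.66 (SE 0.22, edgeR adjusted p = 6.7e-09), with 51.4% shared sequence. Rack1, a signalling scaffold on the small-subunit head, ran from 143.1 to 165.9 CPM in the B1 libraries, with a median of 145.1, and stood at 139.4, 140.7 and 175.0 CPM in control 22, 23 and 24 and 144.3 CPM in BrapcKO 21. With 0.93% shared sequence, its log2 difference was 0.01 (SE 0.09, edgeR adjusted p = 0.95). In BrapcKO against control, neither was called (edgeR, code as a term, lowest adjusted p 0.40).

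Among the 77 measured genes of the mitochondrial ribosome, which translates the transcripts of mitochondrial DNA, 33 were higher in B2 and 0 lower, with a median of 0.27 and 2.67% shared sequence. The smallest p was that of Mrps34, which ran from 0.814 to 2.20 CPM in the B1 libraries, with a median of 1.66, and stood at 20.02, 18.9 and 30.6 CPM in control 22, 23 and 24 and 26.3 CPM in BrapcKO 21. It differed by a log2 of 4.13 (SE 0.21, edgeR adjusted p = 9.4e-09), and it had 52.4% shared sequence. Of 10 elongation factors 7 were higher and 0 lower (median 0.49), with Eef1a1, which brings aminoacyl-tRNA to the ribosome, at 2.24 (SE 0.09, edgeR adjusted p = 6.6e-10). Of 38 initiation factors 22 were higher and 2 lower (median 0.29). For each list in this paragraph, the share over all genes tested was 13.4% higher in B2 and 11.8% lower. Of 20 other genes with TOP mRNAs 17 were higher and 0 lower (median 0.69), with Tpt1, which encodes translationally controlled tumour protein, at 5.92 (SE 0.13, edgeR adjusted p = 3.5e-12).

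For genes that build ribosomes, the counts by code stand beside 13.4% of all genes tested higher in B2 and 11.8% lower. Of 84 biogenesis genes 27 were higher and 4 lower (median 0.18), with Npm1, the nucleolar chaperone, at 1.58 (SE 0.08, edgeR adjusted p = 1.5e-08). Of 14 genes of RNA polymerase I and its factors 2 were higher, near the share over all genes, and 0 lower (median 0.01). Of 31 genes of mTORC1 and S6 kinase signalling 8 were higher and 4 lower (median 0.16), the latter again near the share over all genes. Of 223 genes outside the members with under 1000 bases of exon, 96 were higher and 8 lower (median 0.46, against 2.71 in the members). Their median shared sequence was 0%.

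By group, with the code as a term, 8.07% of all genes tested were called, 3.12% higher and 4.95% lower. The mitochondrial ribosome and the initiation and elongation factors had 0 calls each, with medians of 0.12, 0.08 and 0.05. Ubtf, which activates RNA polymerase I at the ribosomal RNA genes, fell in BrapcKO by 0.29 on the log2 scale (SE 0.07, edgeR adjusted p = 0.03), from 125.8 ± 6.14 CPM (SD, n = 5) to 102.9 ± 5.44 CPM (SD, n = 5). It was the 1 call among the 14 RNA polymerase I genes, a share near that over all genes. The biogenesis list held Ubtf and 1 higher gene, Riok3, a kinase of late small-subunit assembly, at 0.28 (SE 0.07, edgeR adjusted p = 0.029). The mTORC1 and S6 kinase list held 1 higher gene, Rps6ka6, at 0.75 (SE 0.18, edgeR adjusted p = 0.023), and 1 lower, the transcription factor gene Mycn, at -0.87 (SE 0.20, edgeR adjusted p = 0.018). Among the other TOP mRNAs, Vim, the intermediate filament gene vimentin, was higher, at 1.81 (SE 0.27, edgeR adjusted p = 0.0034). In the same comparison the astrocyte marker Gfap was higher by 2.05 (edgeR adjusted p = 0.02) and the microglial marker C1qa by 1.48 (edgeR adjusted p = 0.025), and their part in the Vim difference was not tested. Ubtf, Riok3, Rps6ka6, Mycn and Vim are named because they were the calls in these lists, after their values were seen. Of the 223 short genes, 9 were higher and 8 lower.

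The pyrimidine tract was looked for in RefSeq promoters (GRCm38.p6), which reach from 250 bases before to 50 after the annotated start and gave an entry for 59 of the 77 members. A start counted as tract-like where its first base was C and at least 4 more pyrimidines followed, on the strand of the gene. It did so in 12 of 70 member promoters (17.1%) and in 2.51% of all 32851 promoters. The annotated start need not be the start used in cortex, so other promoters without a match say nothing of the tract. Shown here are the 10 bases before and 20 from the start for the longest tract and for Rps6, with the tract in capitals. Their places are chr14:18270937-18271236 for the promoter of Rpl15 and chr4:86857318-86857617 for that of Rps6, both on the minus strand.
Rpl15: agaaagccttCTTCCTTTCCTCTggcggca
Rps6: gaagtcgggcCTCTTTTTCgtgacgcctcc
Rpl15, whose product binds ribosomal RNA in the large subunit, differed between the codes by 0.79 (SE 0.10, edgeR adjusted p = 4.4e-05), and Rps6 by 5.36, so such starts stood on members with a small and with a large code difference.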

How the data were processed

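RNA of cerebral cortex was sequenced after ribosomal RNA depletion, per the labels' protocols. The deposited values are raw counts of reads per gene. FastQC, Subread, featureCounts, DESeq2 and edgeR, with builds mm10 and GRCm38, are named in the submitters' processing notes, and how they were set was not given in the sources used here.

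Members and gene lists were chosen with earlier results of these data known. Groups, genotypes and title codes come from the labels. Counts were fitted in edgeR 4.0.16 and tested by quasi-likelihood (glmQLFit, robust, TMM scaling, group and title code as terms) in R 4.3.3 over all 14276 genes. The default low-count filter removed 0 genes. P-values were adjusted by Benjamini and Hochberg, and an adjusted p under 0.05 counts as a call. Levels are TMM-scaled CPM. Alternatives used DESeq2 1.42.0 and limma-voom 3.58.1, other scalings, filters and terms, each library left out and subsets of libraries.

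Identifiers matched GENCODE M21 in 14271 cases, 73 of the 77 members in the same version. Shared sequence is the percentage of 50-base stretches of a gene's main transcript (APPRIS principal, then best supported, then longest) found, on either strand, in a transcript of another gene. That measure was chosen after the data were seen. In simulated data 80% of genes raised by a log2 of 1 between codes were called, and 44% of those raised by 0.5 between groups. Those genes were drawn from the whole table, each starting from its mean over all 10 libraries. The rates therefore need not hold for the members, many of which have few counts in B1.

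The text names, among the 10 members of smallest p by code, those reported here, the 3 by group, the 5 most and least abundant per kilobase, paralogs, Rps6, Rpsa, the stalk genes and up to 4 genes per list. Some genes and sequences are not reported here. Other named genes were chosen after their values were seen. Where exons overlap other genes, small RNAs mostly, and where pseudogenes are near-identical, reads may be divided between copies. Library totals ran from 17188901 to 28991874 counts, and members with few counts in B1 carry the widest errors.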

Additional observations from a re-analysis of the deposited data

Results flagged for a closer look

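In groups of 4 to 10 libraries, a library was picked out where its gap to the nearest other, over the range of the group, passed Dixon's 95% value. Chance alone flags about 1 in 20 groups, and 6 of 64 groups tested were picked out. Among the B1 libraries, Rpl4 stood at 314.3 CPM in BrapcKO 06 (300.1 to 305.4 CPM in the others), and Rps27l at 8.41 CPM in the same library (4.99 to 5.96 CPM in the others). Rps27a stood at 3.43 CPM in BrapcKO 05 (2.14 to 2.54 CPM in the other B1 libraries). Among the B2 libraries, control 24 held Rpl10a at 50.2 CPM (33.4 to 35.5 CPM in the others) and Rps15 at 249.6 CPM (156.3 to 167.6 CPM in the others). Among the BrapcKO libraries, BrapcKO 21 held 0.799% of its counts in the members and the others 0.236% to 0.249%. That library is the one BrapcKO library of code B2, and 76 of the 77 members were higher in it than in each other BrapcKO library.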

How the results depend on the processing

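The code comparison kept its direction in the alternatives tried. The median was 2.55 with the title code as the only term, 1.72 over the 55 members that reached 5 CPM in 5 or more libraries, 2.49 within BrapcKO alone and 2.52 to 2.73 with 1 library left out, lowest without control 24. With 1 library left out, 72 to 75 members were higher and 0 lower. The median of BrapcKO against control was reversed, at -0.95, with the group as the only term, as were Rpl35 (-0.99) and Rps25 (-1.08). With the code as a term and 1 library left out it was 0.07 to 0.16, with 0 to 3 members higher (3 without control 24) and 0 to 1 lower (1 without BrapcKO 04). Of all genes tested, 10.2% were called in either direction without control 24 and 7.21% without BrapcKO 04. DESeq2, B1 alone and flox/ko Cre+ against flox/wt Cre- each called 1 member higher, and in that order 11.8%, 2.91% and 4.84% of all genes tested in either direction. The cause of these shifts was not tested. With 4 B2 libraries, the stricter filter keeps only members that reach 5 CPM in at least 1 B1 library. It thus leaves out members that are low in B1, and its median is over another set of members. Levels per kilobase of main transcript, an alternative chosen after the data were seen, had medians of 12.7 CPM in B1 and 107.7 CPM in B2. No paired analysis was possible because the groups share no replicate numbers. Low counts in B1 limit the precision there: the lowest count of a member was 4 in the B1 libraries and 114 in the B2 libraries.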
